A study of Ovis aries with 36 samples.

Results

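Cultured cells labelled as ovine ruminal epithelial cells and kept in a grain-type mixture of volatile fatty acids (VFAs) were compared with cells kept in a hay-type mixture at T0, the first harvest of a 6-harvest series. The comparison used 6 of the 36 libraries, 3 of cells in Grain medium and 3 of cells in Hay medium, taken from the labels of the samples. The other 30 libraries, from T4, T8, T12, T16 and T20, served only to show where T0 differed. All cells were sheep (Ovis aries) cells that had first spent 2 h without serum in DMEM/F12 that held 100 nM of the glucocorticoid dexamethasone, which resets the circadian phase of cultured cells. They then received Grain or Hay medium at pH 7.2 for 24 h, and harvests were labelled 24 h (T0) and every 4 h after that. The event from which these hours were counted is not stated. The stated total of VFAs in Grain medium was 115.78 mM, with 71.1 mM acetate, 20.1 mM propionate, 16.0 mM butyrate, 1.7 mM valerate, 1.1 mM isobutyrate and 5.3 mM isovalerate, which add up to slightly less than that total. Hay medium held 89.79 mM in all, made up of 60.8 mM acetate, 14.6 mM propionate, 9.2 mM butyrate, 1.2 mM valerate, 1.0 mM isobutyrate and 3.0 mM isovalerate. The sodium added with acetate, propionate and butyrate, which were dosed as their salts, also differed. No medium without VFAs was analysed here. Nothing in the labels says that the 3 replicates of each group were grown apart or came from different animals. The p-values therefore rest on a spread between libraries that may be technical only.

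The rumen epithelium takes up the VFAs that microbes make from feed. Acetate, propionate and butyrate enter by diffusion and through transporters, and are activated to CoA esters and oxidised in mitochondria or, in the case of butyrate, turned into ketone bodies. Grain diets raise the total VFA concentration and the share of butyrate and propionate over hay diets. Butyrate also inhibits histone deacetylases. When proteins fold poorly in the endoplasmic reticulum (ER), cells induce ER chaperones and, through the kinase PERK, the transcription factors ATF4 and DDIT3. Immediate early genes such as FOS and EGR1 respond within minutes to growth factor and stress signals without new protein synthesis.

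The T0 libraries held 52397135 to 59126970 counts in Grain and 56947611 to 62959211 in Hay, and the totals of the groups overlapped. No pair of T0 replicates was a repeat of one library, with a chi-square of 4.80 to 9.31 for each degree of freedom, above sampling noise. The epithelial label was checked against markers. KRT14, a keratin of basal epithelial cells, stood at 269.9, 245 and 240.2 CPM (counts scaled to one common library total) in Grain and at 116, 111 and 112 in Hay. CDH1, the epithelial cadherin, stood at 45.2, 44.1 and 41.1 CPM in Grain and at 70.3, 68.5 and 68.2 in Hay. Mesenchymal genes were abundant. FN1, the matrix protein fibronectin, took more counts than any other gene in both media, at 75806 ± 1619 CPM in Grain and 58803 ± 624 in Hay (SD, n = 3). The mesenchymal filament VIM averaged 12771 ± 592 CPM in Grain and 5843 ± 111 in Hay. The 16 basal keratinocyte markers summed to 2464 to 2622 CPM in Grain and 1824 to 1871 in Hay. The 25 fibroblast markers summed to 108079 to 114093 CPM in Grain and 83794 to 85427 in Hay. Such sums are set mainly by the most abundant members of a list, which for fibroblast markers include VIM, and do not weigh all members alike. The libraries thus held RNA of epithelial and of mesenchymal marker genes, and the label alone does not say what cells made it. Of 16 immune markers, the 13 tested summed to 10.1 to 10.5 CPM in Grain and 11.6 to 13.8 CPM in Hay. The 12 endothelial markers summed to 106 to 118 and 56.5 to 59.3 CPM. The leukocyte antigen PTPRC averaged 0.515 CPM in Grain and 0.930 in Hay. The endothelial cadherin CDH5 averaged 0.110 and 0.299. In these bulk libraries, fewer cells of a type and less RNA per cell cannot be told apart.

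The media differed at T0 over most of the transcriptome. Of 22488 genes tested by edgeR's quasi-likelihood test, 14127 (62.8%) passed at a Benjamini-Hochberg adjusted p below 0.05. Of these, 7106 (31.6%) were higher in Grain and 7021 (31.2%) were lower, and the median log2 difference of all tested genes was -0.05. These shares of all tested genes are the background for the T0 list counts that follow. The 3 libraries of one medium lay wholly apart from those of the other for 13558 called genes (60.3%). A fold change of at least 2 was reached by 4440 genes (19.7%), 1505 of them higher and 2935 lower in Grain. At 4-fold or more the counts were 229 higher and 983 lower. Tested against a 2-fold difference, 2014 genes passed, 771 higher and 1243 lower.

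Reads were counted without strand, so values of genes that overlap another annotated gene are uncertain. Beside those marked where they are described, the genes ATF4, BHLHE40, CA4, CANX, CDH1, COL1A1, COX1, CSNK1D, FDPS, HMGCLL1, HSPA1A, IER2, IL6, NPAS2, PDIA6, PFKFB3, PMVK, PTPRC, ROBO1, SIL1, SLC16A4, SLC3A2, SLC4A7, SMARCA1, SPC25, SYVN1, TEF, TGFB1, TKT and TPX2 are of this kind. TKT differed by 1.28 when summed with its partners, against 1.67 alone.

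The direction of the difference went with abundance. In the lowest quartile of genes by mean level over all 36 libraries, 268 of 5622 genes were higher in Grain and 1175 were lower. In the highest quartile, 3049 were higher and 1776 lower. Grain libraries had counts for fewer genes, at 22979, 23124 and 22947, while Hay libraries had counts for 24372, 24522 and 24583. Among tested genes, 341 had no count in any Grain library at T0 and 36 had none in any Hay library. At the later harvests these numbers ranged from 149 to 579 in Grain and from 33 to 105 in Hay, so T0 lay within the later range on both sides.

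**Figure D1:**
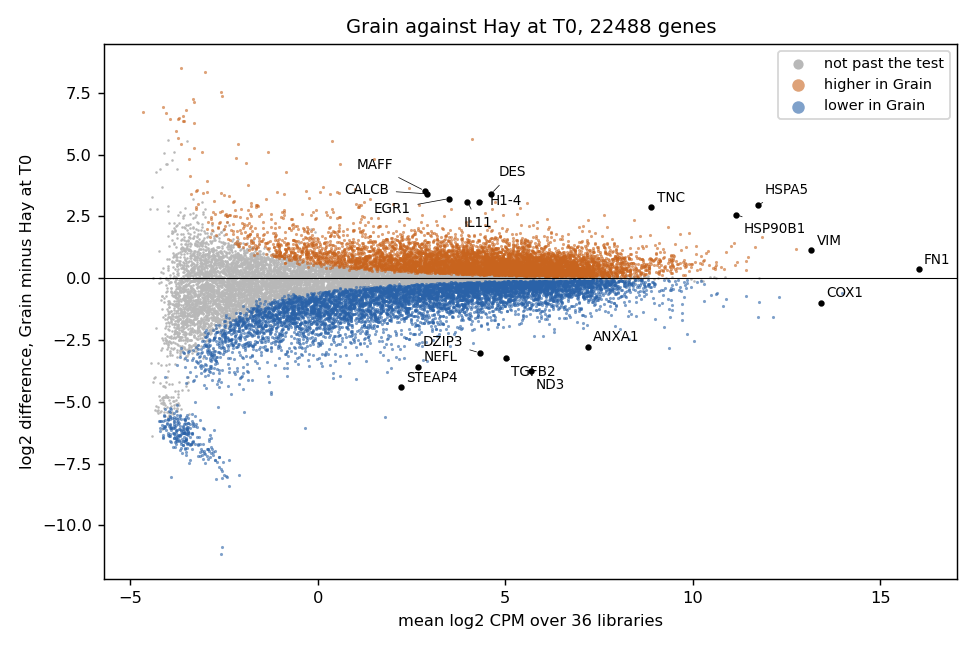
Log2 difference of Grain minus Hay at T0 (y axis) against the mean log2 CPM over 36 libraries (x axis), 1 point per tested gene (22488). Falls dominate among rare genes, where 1175 of 5622 in the lowest quartile were lower in Grain, and rises among abundant genes, where 3049 of 5622 in the highest quartile were higher.

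The genes described next had the widest differences among called genes that reached a mean of 5 CPM in either medium. Their Grain and Hay libraries also had to lie wholly apart, as they did for 13558 called genes (60.3% of those tested). DDIT3, also called CHOP, the stress transcription factor downstream of PERK, stood at 151, 162 and 149 CPM in Grain and at 0.577, 7.90 and 0.715 in Hay. Its log2 difference was 5.63 (SE 0.615, edgeR adjusted p = 3.83e-10). DDIT3 overlaps LOC541600 and MARS1 in the annotation. The reads of DDIT3 and LOC541600 together gave 4.22, and those with MARS1 added gave 1.71, both also past the test. The sum with LOC541600 alone was chosen after the data were seen. DES, the muscle filament desmin, was higher at 85.7, 76.7 and 73.1 CPM against 7.40, 8.10 and 6.69, a log2 difference of 3.41 (SE 0.086). MAFF, a small MAF transcription factor, differed by 3.53 (SE 0.127) and CALCB, a calcitonin gene-related peptide, by 3.42 (SE 0.142). PRG4, a secreted lubricating proteoglycan, differed by 3.67 alone but by 0.38 when its reads were added to those of TPR, which it overlaps.

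On the other side, RAD21L1, a cohesin subunit of meiosis, had the largest fall among named genes that reached 5 CPM, at 0.323, 0.692 and 0.647 CPM against 26.7, 28.9 and 26.9, a log2 difference of -5.63 (SE 0.210). RAD21L1 overlaps another gene and is uncertain. STEAP4, a metalloreductase, stood at 0.932, 0.852 and 1.31 CPM in Grain and at 20.7, 22.2 and 22.9 in Hay (-4.41, SE 0.147). TGFB2, a TGF-beta ligand, stood at 11.7, 10.1 and 10.7 CPM in Grain and at 103, 102 and 98.8 in Hay (-3.22, SE 0.065). For these 3 genes, non-overlap of the Grain and Hay libraries was a condition of being named. The neuronal filament NEFL, the prohormone convertase PCSK1 and the myeloid receptor TREM1 had log2 differences of -3.58 (NEFL), -3.21 (PCSK1) and -2.97 (TREM1).

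Genes of protein folding in the ER were mostly higher in Grain. Of 20 chaperones and foldases, 16 were higher and 2 lower, with a median log2 difference of 0.47 against -0.05 over all genes. HSPA5, the ER Hsp70 chaperone BiP, stood at 10119, 9429 and 8632 CPM in Grain and at 1226, 1200.2 and 1194 in Hay. The difference was 2.96 (SE 0.040, edgeR adjusted p = 1.26e-35). HSP90B1, the ER Hsp90, stood at 5711, 5449 and 5086 CPM against 919, 898 and 904 (2.58, SE 0.039). CALR and CANX, the lectin chaperones that hold new glycoproteins, differed by 1.28 and 1.29, and MANF, a chaperone cofactor that stressed cells secrete, by 1.35. Not all members moved alike: SIL1, a nucleotide exchange factor for HSPA5, was lower (-0.82), as was the disulfide isomerase PDIA6 (-0.21).

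Sensors and degradation genes of the ER were less uniform, with 11 of 18 higher, 2 lower and 5 not past the test. Under DESeq2's size factors the split was 10 higher and 4 lower. HERPUD1, a part of ER-associated degradation, stood at 491, 466 and 451 CPM in Grain and at 78.4, 78.0 and 80.6 in Hay (2.57, SE 0.040). EIF2AK3, which encodes PERK, differed by 1.24, the ubiquitin ligase SYVN1 by 1.06, and XBP1, the factor spliced by IRE1, by 0.32. In the integrated stress response, where ATF4 drives amino acid supply, 22 of 28 genes were higher and 4 lower, with a median of 0.72. ATF4 itself stood at 363, 354 and 339 CPM against 186, 182 and 192 (0.92, SE 0.030). ATF3, a repressor that ATF4 can induce, stood at 314, 301 and 272 CPM against 78.7, 78.7 and 80.2 (1.90, SE 0.038), though ATF3 overlaps another gene. The amino acid carriers SLC7A1 and SLC3A2 differed by 1.43 and 1.12, and asparagine synthetase (ASNS) by 0.81. DDIT4, an mTORC1 inhibitor that ATF4 can induce, went the other way, at 6.17, 6.71 and 5.78 CPM in Grain and 15.5, 15.8 and 15.1 in Hay (-1.31).

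**Figure D2:**
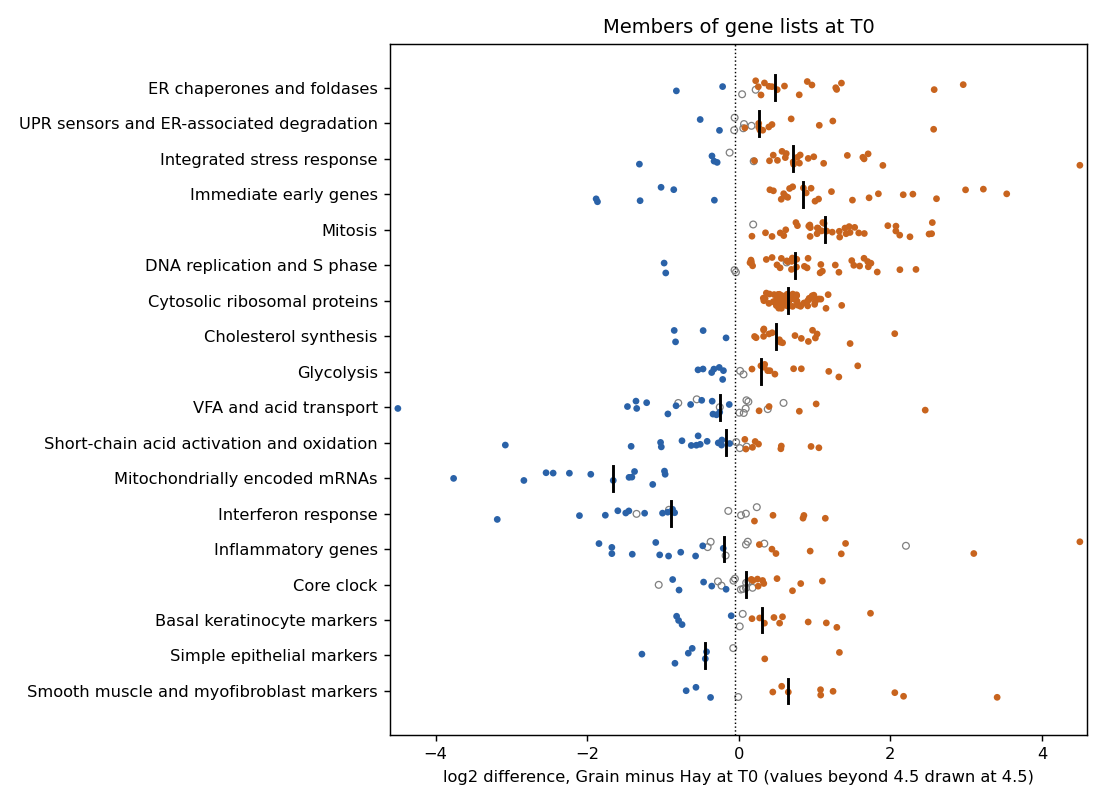
Log2 difference of Grain minus Hay at T0 (x axis) for the members of 18 gene lists (rows), 1 point per gene, filled where past the test. Black bars are list medians and the dotted line is the median of all tested genes. Values beyond 4.5 are drawn at the edge. All points of the mitochondrially encoded mRNAs lie left of 0 and all points of the ribosomal proteins right of it.

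All 13 mRNAs encoded by the mitochondrial genome, which specify subunits of the respiratory chain and ATP synthase, were lower in Grain, with a median of -1.66 and a range from -3.76 to -0.97. Together they took 1.08 ± 0.048% of counts in Grain and 3.05 ± 0.085% in Hay (SD, n = 3; two-sided exact permutation p = 0.1, the smallest that 3 against 3 can give). ND3, a complex I subunit, stood at 14.6, 12.6 and 12.4 CPM in Grain and at 180.2, 173 and 186 in Hay (-3.76, SE 0.078). COX1, the catalytic subunit of cytochrome oxidase, stood at 7639.6, 7649 and 7101 CPM against 14512, 14798 and 14906 (-0.98, SE 0.036). CYTB, of complex III, stood at 286, 264 and 241 CPM against 507, 545 and 499 (-0.97, SE 0.061). The mitochondrial rRNA share did not go down with the mRNAs: it was 0.342% in Grain and 0.306% in Hay. Later libraries ranged from 0.278% to 0.369% in Grain and from 0.171% to 0.392% in Hay, so the T0 gap was small beside the spread between harvests. Nuclear genes of the same complexes were split, with 6 of 20 higher and 12 lower (median -0.18). Of 25 genes of mitochondrial transcription and RNA handling, 15 were higher and 6 lower, among them the RNA polymerase POLRMT (0.17) and the packaging factor TFAM (-0.13).

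Cell division genes were higher in Grain nearly throughout. Of 38 mitosis genes, 37 were higher and none was lower, with a median of 1.14. CCNB2 was the member that did not pass. MKI67, the proliferation marker Ki-67, stood at 6.67, 7.10 and 7.27 CPM in Grain and at 1.53, 2.12 and 1.18 in Hay (2.12, SE 0.171). AURKA, the kinase that matures the spindle poles, stood at 15.5, 15.5 and 16.5 CPM against 2.39, 2.86 and 2.89 (2.54, SE 0.114). For the 40 members of the DNA replication list the counts were 35 higher and 2 lower, with a median of 0.74. All 62 cytosolic ribosomal protein genes were higher, by 0.32 to 1.36, and took 4.73% of counts in Grain and 3.35% in Hay. Ribosomal protein genes have near-identical copies, and 29 of the 62 overlap other genes, so their single values are uncertain. Of 30 ribosome biogenesis genes, 20 were higher and 6 lower.

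Genes that carry VFAs and acid across membranes were more often lower. Of 29 tested, 5 were higher, 14 were lower and 10 did not pass, with a median of -0.25. SLC16A1, the monocarboxylate carrier MCT1, stood at 89.1, 90.5 and 81.6 CPM in Grain and at 121, 123 and 123 in Hay (-0.49, SE 0.037). SLC4A7, a sodium bicarbonate cotransporter, stood at 152, 161 and 158 CPM against 303, 300.4 and 299 (-0.94, SE 0.036). SLC5A8, a sodium-coupled monocarboxylate carrier, differed by -1.36, and the butyrate and hydroxybutyrate receptor HCAR2 by -1.22. SLC16A4, another monocarboxylate carrier, had 0, 0 and 0 counts in Grain and 12, 10 and 10 in Hay. The carbonic anhydrases CA2 (1.02) and CA4 (2.46) were among those higher in Grain.

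Of 26 genes that activate and oxidise short-chain acids, 9 were higher and 14 lower (median -0.17). ACSS1, the mitochondrial acetyl-CoA synthetase, was higher by 0.95, and ACAA1, the peroxisomal thiolase, by 1.06 (34.9, 33.8 and 34.1 CPM against 16.5, 15.2 and 17.7). ACSS3, which prefers propionate, was lower, with 15, 13 and 0 counts in Grain and 58, 97 and 130 in Hay. CPT2, the inner carnitine acyltransferase, was lower, with a log2 difference of -1.02 (SE 0.048). Ketone genes had 4 of 8 lower and none higher. BDH1, the hydroxybutyrate dehydrogenase, stood at 4.77, 6.50 and 6.45 CPM in Grain and at 13.2, 12.1 and 13.0 in Hay (-1.11, SE 0.107). BDH1 overlaps another gene, and the sum of both differed by -0.58. OXCT1, which returns ketone bodies to acetyl-CoA, stood at 136, 135 and 132 CPM against 219, 214 and 225 (-0.71, SE 0.036). HMGCLL1, a lyase of ketone formation outside mitochondria, had 0, 0 and 0 counts in Grain and 26, 19 and 20 in Hay.

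Cholesterol genes were mostly higher, 18 of 22 against 4 lower, with a median of 0.49. INSIG1, the ER protein that retains the SREBP sterol sensor, stood at 129, 118 and 119 CPM in Grain and at 30.0, 28.9 and 29.1 in Hay (2.06, SE 0.044). The members that were lower were PMVK, FDPS, TM7SF2 and HSD17B7. Glycolysis genes were split, with 12 of 21 higher and 7 lower. The glucose carrier SLC2A1 (1.19) and hexokinase HK2 (1.57) were higher, while the pyruvate kinase PKM (-0.47) and lactate dehydrogenase LDHA (-0.54) were lower. SLC2A1 and HK2 overlap other genes.

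Among immediate early genes, 23 of 29 were higher in Grain and 6 were lower, with a median of 0.85. EGR1, a zinc finger transcription factor, stood at 56.0, 60.1 and 61.8 CPM in Grain and at 5.89, 6.45 and 6.64 in Hay (3.23, SE 0.072, edgeR adjusted p = 9.13e-30). FOS, a subunit of AP-1, stood at 32.7, 32.2 and 33.1 CPM against 7.86, 7.25 and 6.67 (2.17, SE 0.077). JUN, its partner, differed less, at 145, 147 and 158 CPM against 98.7, 97.8 and 102 (0.59, SE 0.045). Lower in Grain were MYC, the growth regulator, at 12.5, 11.3 and 9.68 CPM against 41.7, 41.7 and 39.0 (-1.87, SE 0.070), FOSL2, another AP-1 subunit (-1.88), IER2, IER3, IER5 and KLF10.

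Interferon response genes were lower more often, 11 of 22 against 5 higher (median -0.90). MX1 and IFIT1, effectors of the antiviral response, were lower (-1.60 and -1.45), and IFIT1 overlaps another gene. RSAD2, the antiviral enzyme viperin, was an exception at 24.9, 22.1 and 17.4 CPM in Grain against 9.32, 9.64 and 10.3 in Hay (1.14), though it overlaps another gene. Of 26 inflammatory genes, 8 were higher and 11 lower, where 31.6% of all tested genes were higher and 31.2% lower. The cytokines IL1B (-1.68) and IL6 (-1.85) and the chemokine CXCL8 (-1.41) were lower. IL11, a cytokine of the IL-6 family, stood at 42.4, 38.8 and 37.2 CPM against 4.35, 5.12 and 4.32 (3.10, SE 0.088).

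TGF-beta ligands and targets were divided, with 9 of 23 higher and 11 lower, where 31.6% and 31.2% of all tested genes were. TGFB1 was higher, at 391, 372 and 379.8 CPM against 122, 126 and 128 (1.61, SE 0.040), while TGFB2 was lower by a wider margin (-3.22). The inhibitors of differentiation ID1 and ID3 were lower (-1.58 and -1.19). Markers of cell types moved in both directions. Of the smooth muscle and myofibroblast markers, 9 of 13 were higher and 3 lower, and their sum ranged from 3037 to 3323 CPM in Grain and from 2795 to 2867 in Hay. Of fibroblast markers, 17 of 25 were higher and 6 lower, COL1A1 (-0.74) and COL1A2 (-0.78) among the latter. Basal keratinocyte markers had 10 of 16 higher and 4 lower. Simple epithelial markers had 6 of 9 lower and 2 higher, with KRT8 at 36.8, 42.5 and 33.4 CPM in Grain and 90.0, 94.7 and 88.9 in Hay (-1.28, SE 0.061). The part of cell composition in any of the differences above was not tested.

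Other stress and growth lists were split, where 31.6% of all tested genes were higher and 31.2% lower. In the heat shock list, 6 of 18 genes were higher and 10 lower. HSP90AB1, the constitutive cytosolic Hsp90, stood at 1397, 1321 and 1256 CPM in Grain and at 309, 308 and 325 in Hay (2.08, SE 0.039), while HSPA1A, the inducible Hsp70, stood at 115, 107 and 106 against 227, 224 and 221 (-1.03, SE 0.041). Of 27 antioxidant genes of the NRF2 pathway, 11 were higher and 14 lower, with haem oxygenase HMOX1 at -1.38 and the pentose phosphate enzyme TKT at 1.67. Of 18 CDK inhibitors and p53 targets, 7 were higher and 5 lower, near the shares of all tested genes. CCNG1, cyclin G1, stood at 805, 754 and 695 CPM against 149.6, 146 and 148 (2.35, SE 0.045), and the inhibitor CDKN1C differed by 1.79. CDKN1A, the inhibitor p21, was lower (-0.39).

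Lists tied to histone deacetylases, which butyrate inhibits, had members in both directions, and an action of butyrate through these enzymes was not tested. The counts of this paragraph stand beside 31.6% higher and 31.2% lower among all tested genes. Of 12 genes that inhibitors of these enzymes are known to raise, 4 were higher and 8 lower, with a median log2 difference of -0.41. The transcription factor KLF2 was at 2.30 and the phospholipid-binding ANXA1 at -2.78, the latter overlapping another gene. Of 25 histone deacetylases and acetyltransferases, 8 were higher and 5 lower, and 8 were lower without Grain replicate 3. Of 18 glucocorticoid targets, 8 were higher and 7 lower, among them TSC22D3 (0.62) and the kinase SGK1 (-1.34), and all cells had been given dexamethasone. Of 16 genes of osmotic stress, 5 were higher and 9 lower, with the regulator NFAT5 at 0.25 and the water channel AQP1 at -1.49. Hypoxia targets had 9 of 21 higher and 5 lower, with VEGFA at 1.71 and EGLN3 at -1.60. Differentiated keratinocyte markers had 2 of 16 higher and 7 lower.

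The circadian clock, which the study set out to follow, differed at T0 in 15 of 26 core genes, where 62.8% of all tested genes differed, so the share was not above the background. BMAL1, which with CLOCK activates the other clock genes, stood at 84.1, 87.4 and 84.1 CPM in Grain and at 42.4, 36.3 and 40.5 in Hay (1.10, SE 0.041, edgeR adjusted p = 2.8e-23). Its heterodimer partner CLOCK differed by 0.16. Also higher were the repressors CRY1 (0.31), CRY2 (0.50), NR1D1 (0.71) and NR1D2 (0.25), the activator RORA (0.25), NFIL3 (0.82), TIMELESS (0.33) and FBXL21P (0.19). CRY1 and NR1D1 overlap other genes, and with the reads of those genes added they differed by 0.19 and 0.29. Lower were PER2, a repressor, at 2.35, 2.15 and 1.80 CPM against 3.71, 3.26 and 4.59 (-0.87, SE 0.185), BHLHE40 (-0.36), CSNK1D (-0.17) and the CLOCK homologue NPAS2 (-0.47), among others. Without Grain replicate 1, 3 clock genes passed as lower in place of 5. PER1 (0.13), PER3, DBP, TEF, HLF, CIART, BHLHE41, BMAL2, RORB and CSNK1E were among those that did not pass. CIART (-0.44) and BHLHE41 (0.16) passed when summed with the genes they overlap. With one harvest, a difference in level cannot be told apart from a difference in phase.

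The later harvests were then used to ask what was particular to T0. The number of genes that differed between media was not: 12987 genes (57.8%) passed at T4, 12766 (56.8%) at T8, 14463 (64.3%) at T12, 14108 (62.7%) at T16 and 13238 (58.9%) at T20, a range that holds the 62.8% of T0. Of the 14127 genes called at T0, 8763 (62.03%) were called in the same direction at all 5 later harvests and 407 (2.88%) at none. The harvests share no library, so each difference has its own Grain and Hay samples. A single contrast then compared the T0 difference with the mean of the 5 later differences. Of the 407 genes called at no later harvest, 18 passed that contrast.

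In that contrast 1029 of 22488 genes (4.58%) passed edgeR's test, 722 (3.21%) with the T0 difference above the later mean and 307 (1.37%) below. The departures were small, with a median size of 0.22 on the log2 scale, and 33 genes departed by 2-fold or more. Of the 1029, 637 were larger rises and 285 larger falls at T0 than later. A further 8 were smaller rises, 51 were smaller falls and 48 had opposite signs. The highest abundance quartile held 509 of the 722 genes above the later mean. The share above was 70.2%, but 60.4% with DESeq2's size factors in edgeR, 58.7% with DESeq2 and 55.0% with no filter on low counts. The count was 549 without Grain replicate 1, 642 without Hay replicate 1, 637 without Hay replicate 2 and 1565 without the T12 harvest. Tested against a fold of 1.5, 1 gene passed, FOS (adjusted p = 0.00115). First harvest, clock phase and any batch of harvesting cannot be told apart here, and the labels name no batch.

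**Figure D3:**
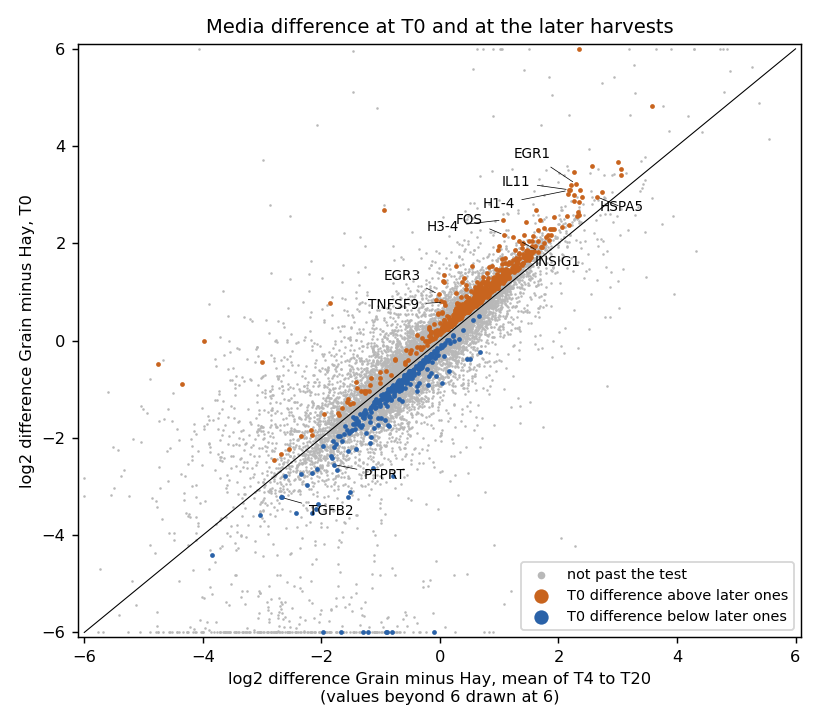
Log2 difference of Grain minus Hay at T0 (y axis) against the mean difference at the 5 later harvests (x axis), 1 point per tested gene. Orange marks 722 genes whose T0 difference lay above the later mean past the test, blue 307 below, and values beyond 6 are drawn at the edge. Most points lie along the diagonal, and coloured points sit close to it.

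Set against single harvests, the T0 difference departed from that at T20 in 929 genes (4.13%), from T16 in 1108 (4.93%), from T4 in 1906 (8.48%), from T12 in 3063 (13.6%) and from T8 in 3625 (16.1%). Within media, 1875 genes in Grain at T0 departed from the later Grain harvests (8.34%, 890 higher and 985 lower at T0). In Hay, 1616 departed (7.19%), of which 396 were higher at T0 and 1220 lower.

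A stricter set, chosen after the values were seen, held the genes whose T0 difference departed in one direction from each of the 5 later harvests. It held 42 genes above (0.187%) and 8 below (0.0356%). Of the 42, 40 were higher in Grain at T0, the exceptions being the glycolytic regulator PFKFB3 and the smooth muscle actin ACTA2, which were less low at T0 than later. The set was chosen by contrasts of these same T0 libraries, so their levels within media describe it and are no separate test. In 35 of the 42, Hay cells at T0 stood below the later Hay cells past the test, beside 1220 of all 22488 tested genes. In 28, Grain cells stood above the later Grain cells, beside 890 of all tested genes. Of the 42, 13 overlap another gene.

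Among the 42 were genes of the actin and tubulin cytoskeleton: ACTB, ACTA2, PFN1, COTL1, CNN1, FLNA, FHL1, TUBB, TUBB6 and TUBB4B. Such genes were not counted among all tested genes, so their share of the 42 has no background to stand beside. This group too was picked after its values were seen. ACTB, cytoplasmic actin, stood at 909.8, 791 and 774 CPM in Grain at T0 and at 455, 440.5 and 431 in Hay. Its difference was 0.90 at T0 and 0.33 to 0.51 later, a departure of 0.44 (SE 0.050, edgeR adjusted p = 2.68e-07). Within media, the ACTB level at T0 against later was -0.45 in Hay and -0.01 in Grain on the log2 scale, and only the former passed the test. FLNA, the actin crosslinker filamin A, differed by 1.71 at T0 and by 1.14 to 1.45 later, and there Grain (0.19) and Hay (-0.24) both moved. TUBB6, a beta-tubulin, differed by 0.89 at T0 and by 0.23 to 0.49 later. TUBB4B differed by 0.56 at T0 and by -0.19 to 0.14 later, though it overlaps another gene. TNC, the matrix protein tenascin C, stood at 1314, 1130.2 and 1109 CPM against 169, 163 and 156, a difference of 2.86 at T0 and of 2.00 to 2.39 later. TNC also overlaps another gene.

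Of the 29 immediate early genes, 16 had a T0 difference above the later mean and none below. Over all tested genes 3.21% lay above and 1.37% below, and 9.05% of the highest abundance quartile lay above. The count of 16 was 10 without Hay replicate 1. Counts were also high for smooth muscle and myofibroblast markers (7 of 13 above) and ER chaperones (10 of 20), so this was not particular to immediate early genes. Grain cells held 59.3 ± 3.00 CPM of EGR1 at T0, against group means of 16.3 to 31.6 at the later harvests, and Hay cells 6.33 ± 0.393 against 4.15 to 5.10 (SD, n = 3). The EGR1 difference was 3.23 at T0 and 1.67 to 2.79 later, a departure of 0.93 (SE 0.077, edgeR adjusted p = 2.17e-10). FOS had the same direction by another route. Grain cells held 32.6 CPM of FOS at T0 against 20.5 to 25.3 later, and Hay cells 7.26 against 7.85 to 14.8, so the media moved apart from both sides (departure 1.08, SE 0.083, adjusted p = 6.01e-11). EGR3, a relative of EGR1, was high at T0 in both media, at 5.95 CPM in Grain against 1.21 to 1.45 later and at 3.07 in Hay against 1.20 to 1.5. EGR3 differed between media by 0.95 at T0 and by -0.30 to 0.19 later.

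**Figure D4:**
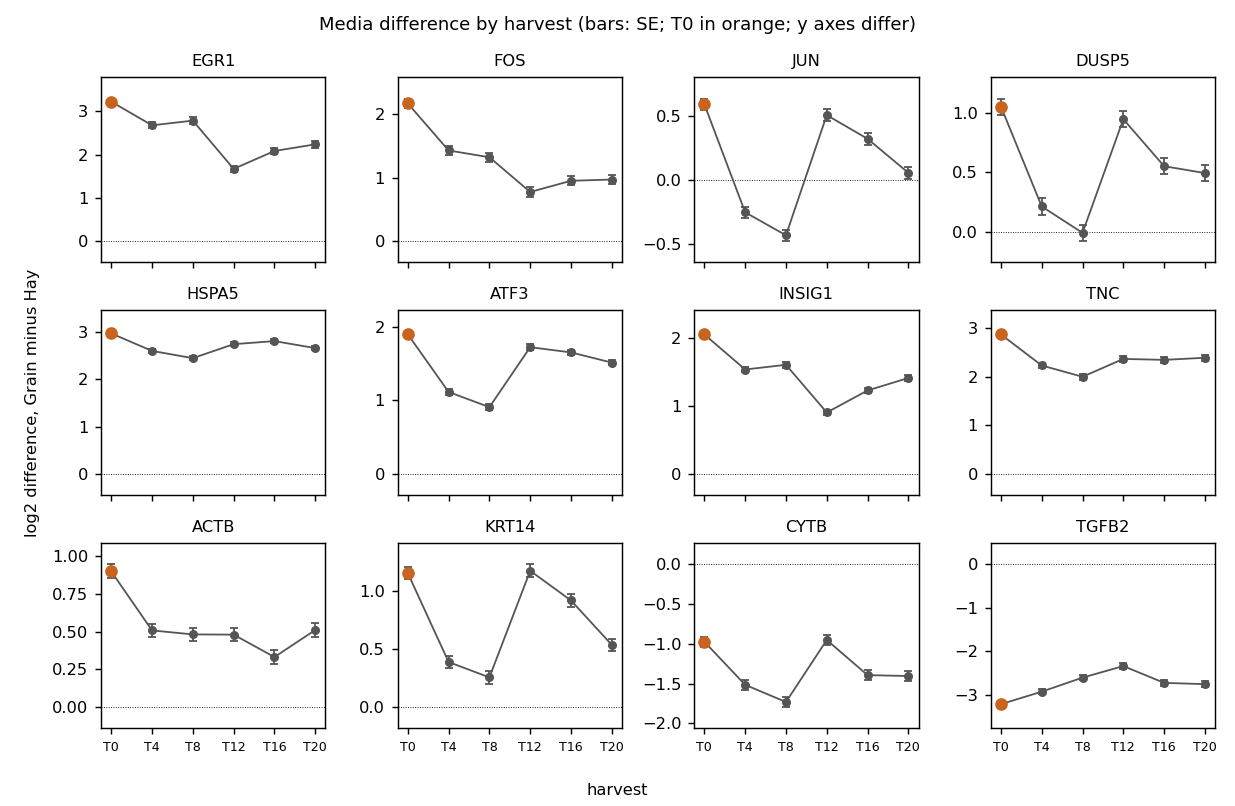
Log2 difference of Grain minus Hay (y axis, scales differ between panels) at each harvest (x axis) for 12 genes, as fitted values with standard errors and T0 in orange. EGR1, FOS, INSIG1, TNC and ACTB have their highest point at T0, while JUN, DUSP5, KRT14 and CYTB come near their T0 value again at T12.

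Other immediate early genes returned to the T0 difference at a later harvest. JUN differed by 0.59 at T0, by 0.51 at T12 and by -0.43 at T8. DUSP5, a phosphatase that switches off ERK, differed by 1.05 at T0, 0.95 at T12 and -0.01 at T8. DUSP6, a related phosphatase, went with the other harvests, with 0.67 for T0, 0.76 for T4, 0.88 for T8 and -0.36 for T12. For JUN and DUSP5 the test of T0 against T12 was not past the threshold (adjusted p = 0.45 and 0.54). IER5, which was lower in Grain, was less so at T0 (-0.86) than later (-1.71 to -1.04).

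Cytokine and sterol genes were also in the strict set. TNFSF9, the ligand of the T-cell receptor 4-1BB, stood at 38.3, 35.4 and 34.3 CPM in Grain at T0 and at 21.1, 20.9 and 20.4 in Hay. The TNFSF9 difference was 0.79 at T0 and -0.15 to 0.31 later (departure 0.72, SE 0.062). IL11 departed by 0.91 (SE 0.095), from 3.10 at T0 to between 1.42 and 2.72 later. INSIG1 differed by 2.06 at T0 and by 0.91 to 1.61 later (departure 0.72, SE 0.047, edgeR adjusted p = 8.53e-13). The INSIG1 level in Hay, 29.3 CPM, was below all later Hay means (33.0 to 70.3), and the Grain level did not depart past the test. Of 22 cholesterol genes, 4 were above the later mean, INSIG1 and MSMO1 among them. That count was 7 without Grain replicate 3 and 2 without the T12 harvest. Glycolysis had 8 of 21 above and 1 below, SLC2A1 (0.41) and HK2 (0.28) among those above, with 4 above without Grain replicate 1 and 5 without Hay replicate 2 or the T8 harvest. Hypoxia targets had 6 of 21 above and 2 below. Over all tested genes 3.21% lay above and 1.37% below, and in the highest abundance quartile 9.05% and 3.45% did. That quartile held 14 of the 22 cholesterol genes, 17 of the 21 glycolysis genes and 15 of the 21 hypoxia targets.

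**Figure D5:**
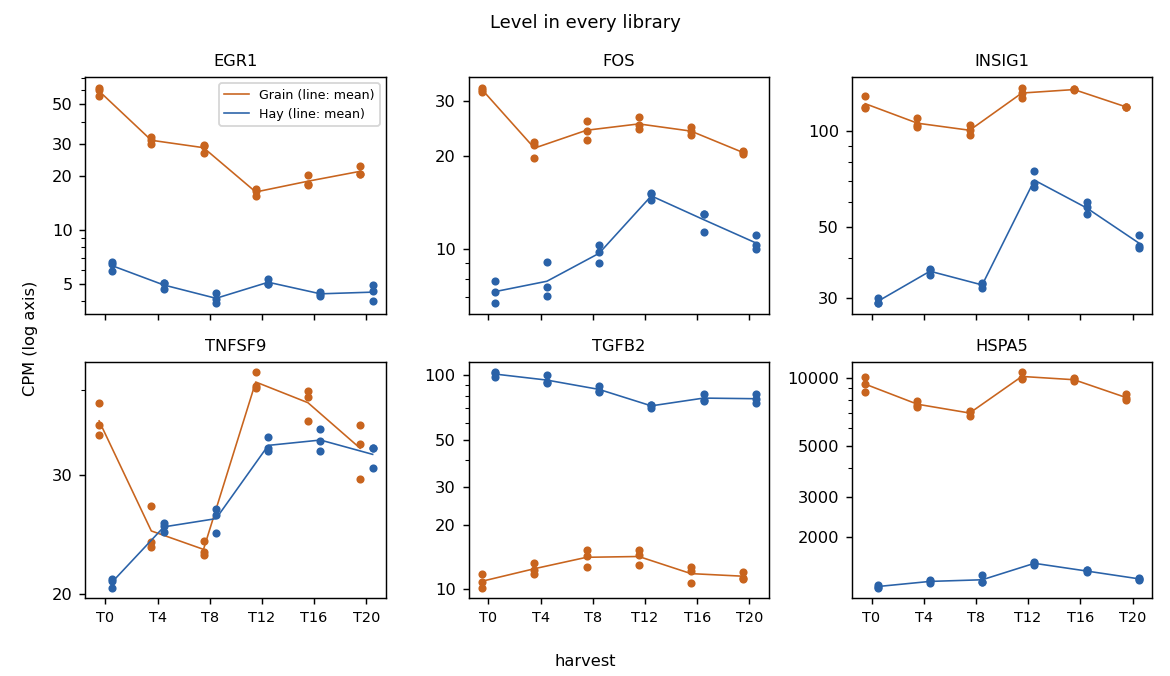
CPM of 6 genes in each of 36 libraries (y axis, log scale) by harvest (x axis), Grain in orange and Hay in blue, lines through group means. EGR1 in Grain has its highest values at T0 (56.0 to 61.8 CPM), INSIG1 in Hay its lowest (28.9 to 30.0), and TGFB2 stays lower in Grain at every harvest.

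In the mean of the later harvests, too, 16 ER chaperones were higher and 2 lower in Grain. Of the 20 ER chaperones, 16 of which belong to the highest abundance quartile, 10 lay above the later mean and none below, and the count above was 5 without Grain replicate 1, 6 without Hay replicate 2 and 6 with no filter on low counts. HSPA5 differed by 2.96 at T0 and by 2.44 to 2.80 later (departure 0.32, SE 0.041, edgeR adjusted p = 3.08e-06). HSP90B1 (0.24) and HERPUD1 (0.26) departed by less. Of the 28 integrated stress response genes, 10 lay above, or 6 without Grain replicate 1 or Hay replicate 2. Of these 28, 15 belong to that quartile, in which 9.05% of genes lay above, where 3.21% of all tested genes did. ATF3 differed by 1.90 at T0 and by 0.91 to 1.72 later (departure 0.52, SE 0.041). Its level at T0 stood above later Grain cells by 0.50, and the Hay value (-0.02) did not pass the test. DDIT3 did not depart past the test alone (0.37, adjusted p = 0.897) and did when summed with LOC541600 (0.56).

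Of the 7 histone genes tested, a group picked after its values were seen, 4 lay above the later mean. H1-4, a linker histone, stood at 88.5, 77.2 and 60.9 CPM in Grain at T0 and at 9.12, 9.43 and 8.06 in Hay, a difference of 3.09. Later it ranged from 1.44 at T8 to 2.88 at T12 (departure 0.92, SE 0.124). H3-4 departed by 1.42 (SE 0.255), from 2.48 to between 0.47 and 1.77. The H1-4 and H3-4 departures came with T0 levels above later ones in Grain cells (0.93 and 1.5), while in Hay cells the values were 0.01 and 0.08, neither past the test. Mitosis genes had 3 of 38 above the later mean, AURKA (0.62), TPX2 and SPC25, and this count was 1 without Grain replicate 2. The S phase list had 4 of 40 above, and 0 without Grain replicate 1 or without Hay replicate 2. Over all tested genes, 3.21% lay above.

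Fewer genes were further below at T0. The set below each later harvest had 7 genes with symbols: TGFB2, SMARCA1, SLC4A7, DPY19L1, OCRL, CCDC50 and ROBO1. TGFB2 differed by -3.22 at T0 and by -2.93 to -2.34 later (departure -0.55, SE 0.069, edgeR adjusted p = 2.12e-06). At T0, TGFB2 was low for Grain (-0.23 against later Grain) and high for Hay (0.32 against later Hay). SMARCA1, a chromatin remodelling ATPase, differed by -2.06 at T0 and by -1.87 to -1.74 later. OCRL, an inositol phosphatase of the Golgi and endosomes, differed by -1.47 against -1.20 to -1.08. PTPRT, a receptor phosphatase, had a departure of -0.75 but came close to its T0 value of -2.55 at T12 (-2.43).

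Keratin and muscle genes showed departures with different timing. KRT14 differed by 1.15 at T0, 1.17 at T12 and 0.26 at T8. KRT5, its partner, differed by 0.54 at T0, 0.62 at T12 and -0.82 at T8. ACTG2, a smooth muscle actin that overlaps another gene, ran the other way, with 2.17 for T0 and 2.18, 2.62 and 0.42 for T4, T8 and T12. TPM2, a tropomyosin, had 2.06 for T0 and 2.01, 2.26 and 1.00 for those harvests. Of the smooth muscle markers, 7 of 13 lay above the later mean and none below. Of 23 TGF-beta ligands and targets, 8 lay above and 1, TGFB2, below. Fibroblast markers had 7 of 25 above and none below, but 2 above without Grain replicate 1 and 14 without the T12 harvest. Basal keratinocyte markers had 6 of 16 above and 1 below, with 3 above without Grain replicate 1 and 11 without the T12 harvest. Over all tested genes 3.21% lay above and 1.37% below, and in the highest abundance quartile 9.05% and 3.45% did. That quartile held 9 of the 13 smooth muscle markers and 16 of the 23 TGF-beta genes. It also held 21 of the 25 fibroblast markers and 11 of the 16 basal keratinocyte markers.

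Opposite signs at T0 and later, each past its own test, were seen in 13 genes higher and 2 genes lower at T0. SERPINB1, a protease inhibitor of leukocytes and epithelia, stood at 244, 228 and 231 CPM in Grain and at 182, 187 and 185 in Hay at T0 (0.34, SE 0.035). Later the SERPINB1 difference averaged -0.10, ranging from 0.50 at T8 to -0.90 at T12. KRT17 (0.17 and -0.14), KRT6A (0.28 and -0.19), ADAMTS1 (0.23 and -0.18) and ALDH2 (0.21 and -0.05) had a positive difference at T0 and a negative mean later. KRT17, KRT6A and ADAMTS1 each had a positive difference at T12, and ALDH2 overlaps another gene. OPA1, a mitochondrial fusion GTPase, and KTN1, an anchor of kinesin, were lower at T0 (-0.14 and -0.10) and higher in the later mean (0.03 and 0.05). At T4, T8 and T20, KRT17, KRT6A, ADAMTS1, ALDH2, OPA1 and KTN1 had the sign opposite to that at T0. SERPINB1 kept its T0 sign at T4 and T8.

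The mitochondrial mRNAs were as a list no lower at T0 than later, with medians of -1.66 and -1.65, and their share in Grain at T0 lay within the later Grain range of 0.861% to 1.44%. In 5 of 13, the fall at T0 was smaller than later, CYTB and COX3 among them. All 13 belong to the highest abundance quartile, in which 9.05% of genes lay above the later mean. CYTB differed by -0.97 at T0 and by -1.73 at T8, but by -0.95 at T12, and COX3 by -1.95 at T0 and -2.70 at T8. The count of 5 was 2 without Grain replicate 1 or the T8 harvest, and 3 without any one of Grain replicate 2, Hay replicate 1 and Hay replicate 3. Ribosomal protein genes had 18 of 62 above the later mean. All 62 belong to the highest abundance quartile, in which 9.05% of genes lay above it. That count was 3 without Grain replicate 1, 9 with DESeq2's size factors, 6 with no filter on low counts, 8 to 11 without any one of Grain replicate 3 and the Hay replicates, 8 to 10 without T12, T16 or T20, and 32 without T8.

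None of the 26 core clock genes passed the test of T0 against the later mean in edgeR or in DESeq2. At an unadjusted p below 0.05 there were 5, and the smallest adjusted p was that of BMAL1 (0.0832), whose difference was 1.10 at T0 and 0.89 to 1.11 later. Likewise 0 of 8 ketone genes passed in edgeR or DESeq2, with 3 at an unadjusted p below 0.05. VFA and acid transport had 2 above, CA2 among them, and 1 below (SLC4A7) of 29, near the background. The CA2 call was lost without T12. CA2 differed by 1.02 at T0, 1.06 at T4 and -0.32 at T12.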

How the data were processed

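Total RNA of 36 samples was sequenced as TruSeq paired-end libraries without strand, per the labels' protocols. The submitters' processing notes name StringTie 2.1.5, HISAT2 2.2.1 and SAMtools 1.20. Which of them counted, and on which build, is not stated there. Raw counts were deposited by the authors for 35223 genes, and 2778 rows have no symbol.

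Genes with enough counts (edgeR's filterByExpr, minimum count 10, total 15) numbered 22488. They were fitted in edgeR 4.0.16 (limma 3.58.1, R 4.3.3) with TMM scaling and 12 group means over all 36 libraries, by quasi-likelihood tests with Benjamini-Hochberg adjustment over all tested genes at 0.05. The scripts were tested on simulated data. CPM are TMM-scaled. Shares were compared by exact permutation. DESeq2 1.42.0, other scalings, no filter, leave-one-out and leave-one-harvest-out fits were alternatives. Same-numbered replicates did not deviate together.

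Genes were named by rule. The first rules took, at 5 CPM or more, the 12 largest rises and falls at T0 with Grain and Hay libraries apart. Among genes past the test of T0 against the later harvests, they also took the 10 largest departures each way. Up to 6 sign differences each way came from genes past that same test. Further rules took up to 4 and 3 smallest p of each list, and all clock genes. Other names were chosen after their values were seen. The comparison and the 44 lists (1013 genes, 956 tested) were chosen with earlier results of these data known. Overlapping genes come from RefSeq (ARS-UI_Ramb_v3.0) and are called uncertain. Some genes of the lists are counted but not reported by name here.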

Additional observations from a re-analysis of the deposited data

Results flagged for a closer look

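For 28 genes named by rule, the Grain minus Hay difference at T0 departed from the mean of the 5 later harvests by a test of that difference (edgeR's quasi-likelihood test, adjusted over all genes). Passing this test was a condition of the rules that named these genes, so the passes are no separate support. The values are T0 minus the later mean on the log2 scale. Among transcription factors and cytokines, the departures were 1.08 for FOS, 0.98 for EGR3, 0.93 for EGR1, 0.91 for IL11 and 0.72 for TNFSF9. INSIG1 departed by 0.72 and the stress-induced growth inhibitor OSGIN1 by 0.74. The histones H3-4 and H1-4 departed by 1.42 and 0.92, and the adhesion molecule CLMP by 1.13. Departures below the later mean were -0.91 for BBOF1, -0.75 for PTPRT, -0.72 for TREM1, -0.71 for the Wnt inhibitor SFRP5, -0.67 for the proteoglycan SPOCK1, -0.59 for RBMS3, -0.57 for LMNTD1, -0.56 for PCSK1, and -0.55 each for NEFL and TGFB2. Signs differed between T0 and the later mean for KRT6A (0.47), SERPINB1 (0.44), ADAMTS1 (0.41), CSRP1 (0.34), KRT17 (0.32), ALDH2 (0.26), OPA1 (-0.17) and KTN1 (-0.15). OSGIN1, CLMP, BBOF1, NEFL, PCSK1, TREM1, SFRP5, RBMS3, LMNTD1, KTN1 and CSRP1 lost the call in at least 1 alternative fit other than the test against a fold of 1.5. OSGIN1, CLMP, BBOF1, LMNTD1, RBMS3, SPOCK1 and ALDH2 overlap other genes. With the reads of those genes added, the departure was -0.022 for BBOF1 (edgeR adjusted p = 0.88), 0.25 for CLMP, 0.075 for LMNTD1 and 0.57 for OSGIN1. Only that of CLMP among these passed the test. The CLMP sum holds the reads of HSPA8, a gene of the heat shock list, and averaged 1665 CPM in Grain and 481 in Hay at T0. Its passing therefore cannot be credited to CLMP.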

How the results depend on the processing

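Of 264 named genes called at T0, 258 kept the call in every alternative other than the 2-fold test. AACS, CSRP1, KTN1 and NPAS2 were among the others. Tested against a fold of 2, 2014 genes passed at T0, 771 higher and 1243 lower. Leaving out a T0 library gave 13360 to 13473 calls, 6799 to 6880 higher and 6508 to 6674 lower. Same-numbered replicates at T0 correlated by -0.039, -0.018 and -0.004 in their deviations, so the numbers were not taken as pairs. With the replicate block, 14093 genes were called at T0 and 1057 departed from the later harvests. The T0 libraries alone gave 13831 calls and, with the block, 13365. With DESeq2's size factors the median T0 difference moved from -0.05 to -0.09.

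The departures at T0 were less firm: of 140 named, 66 kept the call in every alternative other than the 1.5-fold test, which 1 gene passed, above, with 0 below. Without a T0 library 549 to 1004 were called, 374 to 721 above and 150 to 283 below. Without the T12 harvest there were 1565, of which 561 were below. DESeq2 put 552 below, and without a filter 440 lay above. Signs turned for CCDC65 (0.065) and LMNTD1 (0.19) at T0 when summed with overlapping genes, and for PRG4 (-0.042), LMNTD1 (0.075) and KDELR3 (-0.090) in the departure. BBOF1 ranged from -1.24 to 0.077 when a T0 library was left out, turning without Hay replicate 3, and SLC38A2 without T8 (-0.0096). The cause was not tested. Genes without counts in a medium limit folds among rare genes.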
